A study of Mus musculus with 2 samples.

Results

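The nuclei described here were the 150 barcodes with the strongest joint signal of 7 genes: Il17f, Msh4, Nfe2l3, Dnajb14, Slc35d2, Trim36 and Polg2. They were ranked by the mean over these genes of ln(1 + UMIs per 10000 RNA UMIs), where a UMI is a molecular tag that counts 1 captured RNA molecule. Only barcodes with 3000 to 30000 RNA UMIs and at least 2000 peak counts were ranked, which left 11605 of the 15341 barcodes in the series. The 150 members were compared with the other 11455, and also with the 7414 of those that held a UMI of the epiblast factor gene Pou5f1. Because the RNA chose the members, their RNA is given as a description. Their chromatin accessibility, measured in the same nuclei, took no part in the score, and entered the choice only through that minimum of peak counts.

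The nuclei came from mouse embryos at embryonic day 7.0, which were pooled, dissociated with TrypLE and strained before nuclei were isolated for the 10x Genomics assay of RNA and open chromatin. There were 2 samples, 1 of chromatin accessibility and 1 of nuclear RNA, both at E7.0, so no barcode could be tied to an embryo and no comparison had a replicate. The labels conflicted: the title, age and protocol gave E7.0 embryos, while the tissue, cell type and strain entries gave small intestine or distal colon, goblet cells and RedMUC298trTg. No treatment was named.

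At this stage the epiblast, the tissue that forms the body, passes through the primitive streak and gives rise to mesoderm and definitive endoderm, surrounded by visceral and parietal endoderm, extraembryonic ectoderm and the ectoplacental cone. The 7 scoring genes belong to no single known pathway. Il17f encodes a secreted cytokine of T cells, Msh4 a MutS homologue of meiotic crossing over, and Nfe2l3 a CNC-bZIP transcription factor. Dnajb14 encodes a J-domain co-chaperone of the endoplasmic reticulum, Slc35d2 a nucleotide sugar transporter, Trim36 a RING ubiquitin ligase, and Polg2 the accessory subunit of the mitochondrial DNA polymerase. In a nucleus, RNA polymerase II runs past the 3′ end of a gene before it is released, and nuclear RNA counts include unspliced transcripts, so a long gene can be counted along its introns.

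The promoters of 4 scoring genes are shown because the RNA of these genes was far higher in the members, by the choice, while accessibility at 3 of these promoters was not higher and Il17f had no peak there. Each runs from 250 bases before to 50 after the start in RefSeq (GRCm38.p6), on the gene's strand. Capitals mark the TATA box letters TATAAA and the GC box letters GGGCGG, searched on both strands, so that a GC box on the other strand reads CCGCCC. RefSeq promoters were at hand for 5 of the 7 genes. Il17f lies at chr1:20784221-20784520 on the minus strand, Nfe2l3 at chr6:51432419-51432718 on the plus strand, Dnajb14 at chr3:137867425-137867724 on the plus strand and Polg2 at chr11:106779488-106779787 on the minus strand.
Il17f promoter: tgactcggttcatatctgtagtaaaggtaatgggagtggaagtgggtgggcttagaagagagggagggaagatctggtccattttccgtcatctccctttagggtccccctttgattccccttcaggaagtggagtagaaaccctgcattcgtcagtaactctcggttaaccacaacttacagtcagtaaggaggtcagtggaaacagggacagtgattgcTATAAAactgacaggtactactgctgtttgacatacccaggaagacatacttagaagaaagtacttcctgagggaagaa
Nfe2l3 promoter: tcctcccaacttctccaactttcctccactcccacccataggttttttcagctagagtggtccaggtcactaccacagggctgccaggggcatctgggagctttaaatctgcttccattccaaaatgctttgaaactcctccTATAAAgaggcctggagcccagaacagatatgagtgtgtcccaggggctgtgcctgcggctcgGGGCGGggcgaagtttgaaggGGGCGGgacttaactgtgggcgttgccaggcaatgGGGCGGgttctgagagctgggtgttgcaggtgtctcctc
Dnajb14 promoter: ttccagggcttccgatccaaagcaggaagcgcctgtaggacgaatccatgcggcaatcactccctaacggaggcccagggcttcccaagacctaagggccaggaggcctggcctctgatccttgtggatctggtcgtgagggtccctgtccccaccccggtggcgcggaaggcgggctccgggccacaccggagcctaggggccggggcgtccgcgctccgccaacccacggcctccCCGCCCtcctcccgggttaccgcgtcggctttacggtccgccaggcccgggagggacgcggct
Polg2 promoter: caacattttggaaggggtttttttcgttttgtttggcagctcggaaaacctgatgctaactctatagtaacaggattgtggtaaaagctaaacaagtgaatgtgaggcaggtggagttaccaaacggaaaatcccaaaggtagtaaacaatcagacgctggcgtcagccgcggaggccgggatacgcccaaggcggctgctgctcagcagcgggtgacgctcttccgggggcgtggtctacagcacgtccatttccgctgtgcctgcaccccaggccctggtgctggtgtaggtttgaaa

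These promoters had little in common. TATAAA began 29 bases before the start of Il17f and 108 before that of Nfe2l3, and it was in 13.6% of all 32851 RefSeq promoters of this length. GGGCGG matched 3 times in Nfe2l3 and 1 time in Dnajb14, against 35.7% of all promoters with a match. The GC content was 46.3% in Il17f, 43.3% in Msh4, 53.3% in Polg2, 56.7% in Nfe2l3 and 70.0% in Dnajb14, around a median of 52.7% over all promoters. CCAAT, TGACNNNGC (the core of the antioxidant response element bound by CNC-bZIP factors) and the paired cores of the p53 site matched none of the 5, against 37.4%, 12.4% and 0.712% of all promoters.

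The members were shallower than the rest. In the score 1 UMI weighs more in a shallow barcode, so the choice itself can favour low depth. The part of the score in this difference was not tested. They held a median of 6607 RNA UMIs (quartiles 5176 and 8186, highest 26481) against 11402 (8746 and 15210) in the other barcodes, and a median of 3235 detected genes against 4426. Their median peak count was 15271 against 19544, and mitochondrial UMIs made up a median of 0.101% against 0.0849%. Scrublet called 2 members (1.33%) doublets against 6.29% of the others. Because depth moved with membership, some ratios below are also given against the 1885 other barcodes whose UMIs lay within the members' quartiles, called depth-matched.

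Scores ran from 0.625 to 1.41 in the members, with a median of 0.822, and had a median of 0.0805 in the others. There was no gap at the boundary: the barcode at rank 150 scored 0.625 and the one at rank 151 scored 0.622. The last member held UMIs of 4 of the 7 genes and the first barcode outside held UMIs of 3. Of the members, 2 held UMIs of all 7 genes, 15 of 6, 48 of 5, 55 of 4, 28 of 3 and 2 of 2. Among the others, 4528 (39.5%) held none and 1 held 6.

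**Figure D1:**
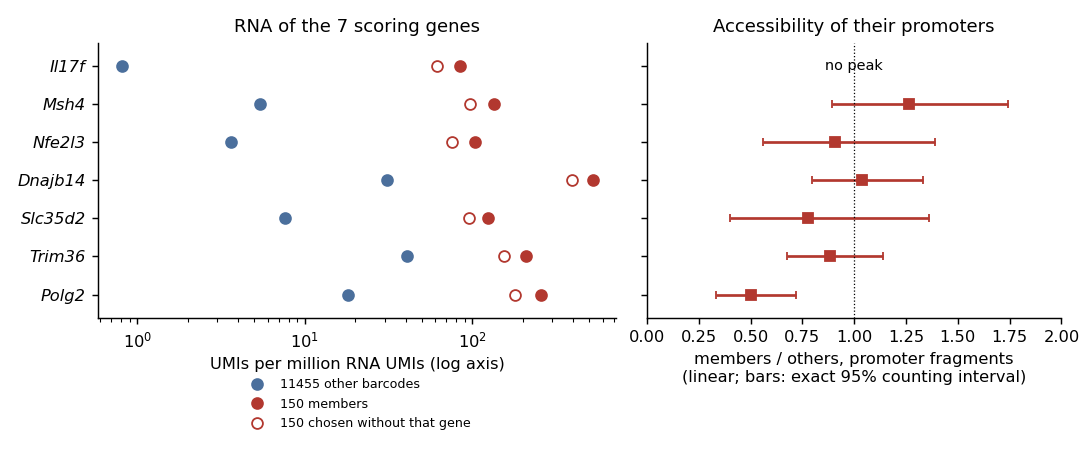
Left, CPM (counts per 1000000 UMIs, log axis) of each scoring gene summed over the 150 members, the 11455 other barcodes and 150 barcodes chosen by the other 6 genes. Right, the ratio of promoter fragments, members over others (linear axis, exact 95% counting interval); RNA ratios run from 5.15 to 104.5, while the promoter ratios run from 0.500 to 1.27.

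Il17f stood furthest apart in RNA. The members held 93 of its UMIs, from 62 nuclei with at most 3 each, and the others held 116. Its level was 84.7 counts per 1000000 UMIs (CPM) against 0.810, a ratio of 104.5 (counting interval 78.7 to 138.5). Per nucleus it ran from 0 to 5.25 UMIs per 10000 with a median of 0, so most members had none.

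Nfe2l3 and Msh4 followed. Nfe2l3 reached 103.8 CPM in the members on 114 UMIs against 3.63 in the others, a ratio of 28.6 (23.1 to 35.1), with 0 to 8.66 UMIs per 10000 in single nuclei. Msh4 reached 135.7 CPM on 149 UMIs against 5.43, a ratio of 25 (20.8 to 29.8), with a median of 0.987 and a highest value of 13.4 UMIs per 10000. Nfe2l3 was found in 66 members and Msh4 in 82.

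Dnajb14 gave the most UMIs. The members held 577, from 140 nuclei, and its level was 525.4 CPM against 31, a ratio of 16.9 (15.5 to 18.5). The median nucleus held 4.35 UMIs per 10000 and the highest 17.6. Slc35d2 reached 123.8 CPM against 7.59, a ratio of 16.3 (13.5 to 19.5), and Polg2 257.7 CPM against 18.1, a ratio of 14.2 (12.5 to 16.1). Trim36 had the smallest ratio, 5.15 (4.50 to 5.88), from 210.3 CPM against 40.8. Against the barcodes with a Pou5f1 UMI the 7 ratios ran from 5.27 for Trim36 to 103.8 for Il17f.

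The shares of nuclei with a UMI were compared at 1 depth. After every barcode was thinned to 3000 UMIs, which left none out, Dnajb14 was found in 72.0% of members (64.1% to 79.0%) and 8.51% of others. The unthinned shares were 93.3% and 27.0%. Polg2 was found in 52.7% against 5.42%, Msh4 in 29.3% against 1.81% and Il17f in 27.3% against 0.210%. Unthinned, those shares were 82.0% against 17.8%, 54.7% against 6.03% and 41.3% against 0.873%. In the others, a UMI of Il17f was found in 0.565% to 2.09% of each class described below. The share that free RNA gives was not estimated, so these are not read as nuclei that express it.

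To take each gene out of its own choice, 150 barcodes were chosen again by the other 6 genes. Of these, 119 to 135 were members. The left-out gene was higher in the chosen barcodes in all 7 cases, with a median ratio of 12.3 (11.1 to 13.6, Dnajb14). The 7 genes had been picked together on these data, so a rise of the left-out gene was built in. These ratios are a description and no independent support. Il17f had a ratio of 62.2 (45.9 to 83.6), Nfe2l3 19.8, Msh4 16.7, Slc35d2 12.2, Polg2 9.71 and Trim36 3.75 (3.20 to 4.37). With scores from barcodes thinned to 3000 UMIs the highest of the 7 left-out ratios was 37.7. Trim36 thus had the smallest ratio both as a scoring gene and when left out.

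Accessibility at the promoters did not follow the RNA. Over the 10 peaks at promoters of 6 of the genes, the members had 222 estimated fragments, or 167.4 per 1000000 fragments against 191.6 in the others, a ratio of 0.874 (0.762 to 0.997). Msh4 had a ratio of 1.27 (0.893 to 1.74, 38 fragments), Dnajb14 1.04 (0.795 to 1.33, 62 fragments), Nfe2l3 0.908 (0.561 to 1.39, 21 fragments), Trim36 0.885 (0.675 to 1.14, 60 fragments) and Slc35d2 0.776 (0.400 to 1.36, 12 fragments). Polg2 was lower, with 29 fragments and a ratio of 0.500 (0.334 to 0.719), the only one of the 6 whose interval left out 1. No peak lay at the Il17f promoter, within 2000 bp to either side of its start. The median ratio over all tested peaks was 0.942.

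Few of the tested peaks differed 2-fold between the members and the others. Of all 229480 peaks, only the 14338 with at least 20 expected fragments were tested. Of these, 1 (0.00697%) was at least 2-fold higher in the members and 103 (0.718%) were at least 2-fold lower. The single higher peak, named after its value was seen, was at chr4:145463497-145464369, with 41 fragments and a ratio of 2.0 (1.43 to 2.73), and lay 46390 bp from Zfp990, a zinc finger gene. Peaks were also named by ratio among those with at least 20 fragments in the members, from at least 10 of them. The highest such ratio was 3.96 (2.61 to 5.78), on 28 fragments at chr6:53760489-53761354, which lay 54114 bp from Tril. That peak was not among the 14338 tested. These peaks passed the minimum through the group where they are high, so their ratios are a description. None of the 10 highest peaks lay inside a scoring gene.

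The members were spread over cell classes. Clustering accessibility gave 19 clusters, of which 17 could be named from the RNA of marker genes, in 8 classes; members were in 16 clusters and 7 classes. The largest number, 56 (37.3%, 29.6% to 45.6%), was epiblast-like, against 26.7% of the others. There were 22 (14.7%) members in the 2 clusters named anterior streak, node and definitive endoderm-like, 21 (14.0%) visceral endoderm-like, 17 (11.3%) embryonic mesoderm-like, 8 (5.33%) haemato-endothelial progenitor-like, 6 (4.0%) extraembryonic ectoderm-like and 2 (1.33%) parietal endoderm-like. The class named from ectoplacental cone and giant cell markers held 0 of 150 members, with an exact upper limit of 2.43%, and 2.68% of the others. Of the 22, 17 were in a cluster led by Pkd1l1, with Chrd and Foxj1 of that marker list among its top 10 genes. The other 5 were in a cluster led by 6030498E09Rik, Gckr and Sfrp5 with none of the list in its top 10. Its other nuclei held 10503 CPM of the visceral endoderm list, against 1406 in the first cluster, so the name is uncertain for those 5. The remaining 18 members were in 1 unnamed cluster, led by Wnt8a, Dcc and Alcam. The primitive streak list was highest there (mean log2 ratio 0.960, 6 of 10 markers raised), but none of it was among the top 10 genes while Fst, of the parietal endoderm list, was, so the cluster was left unnamed. By accessibility the nuclei were of no single class, and they are called members here.

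**Figure D2:**
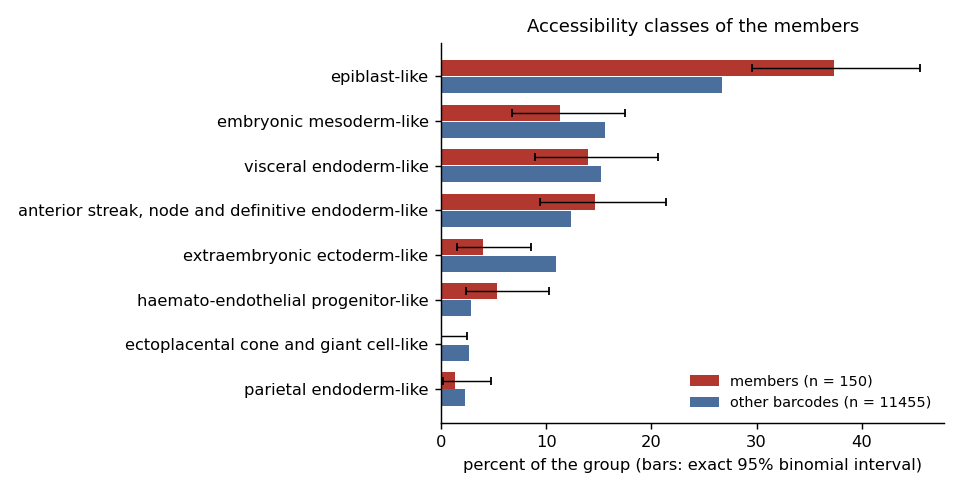
Percent of the 150 members and of the 11455 other barcodes in each named accessibility class, with exact 95% binomial intervals on the members. Epiblast-like nuclei make up 37.3% of members and 26.7% of others, and 7 of the 8 classes hold members.

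Within the epiblast-like class the members sat mostly in 1 of its 4 clusters. That cluster held 46 members, 30.7% of them (23.4% to 38.7%), against 6.06% of the others, and its leading genes by RNA were Elavl3, Ptchd1, Skida1 and Myb. Its nuclei had a median of 8612 UMIs, below those of the other 3 epiblast-like clusters (9401 to 12969). Of the remaining epiblast-like clusters, the one led by Ralyl, Slc35d3 and Nalcn held 0 of the 150 members (exact upper limit 2.43%) among its 927 barcodes, and another held 2 among 787. Members were also near each other: of a member's 15 nearest neighbours by accessibility, 12.2% were members, against 0.935% of the neighbours of other barcodes. In RNA embedded without the 7 scoring genes the shares were 28.4% and 0.882%, and 82 members (54.7%, 46.3% to 62.8%) were in 1 epiblast-like RNA cluster, against 7.70% of the others. That cluster's 10 leading genes included the named genes Lsmem1, Il12rb2, Gm15892 and Phyhipl described below. A visceral endoderm-like RNA cluster with Polg2 among its leading genes held 21 members (14.0% against 2.02%), and an embryonic mesoderm-like one with Trim36 among them held 14 (9.33% against 1.37%). The RNA chose the members, so this is a description. The part of depth in this nearness was not tested.

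In each of the 7 named classes with members, the members held more RNA of their class's marker list than members elsewhere, and in 5 of them less than the other nuclei of the class. Visceral endoderm-like members had 13536 CPM of the visceral endoderm list, other nuclei of that class had 16536, and members elsewhere had 2078. Embryonic mesoderm-like members had 2197 CPM of the mesoderm list against 3103 in others of the class and 417.3 in members elsewhere. Haemato-endothelial progenitor-like members had 2353 CPM of their list, others of the class 1953, and members elsewhere 160.5. Epiblast-like members had 3342 CPM of the epiblast list against 3670, with 1870 in members elsewhere. Anterior streak, node and definitive endoderm-like members had 1220 CPM against 1879, with 432.4 elsewhere; in the cluster of 17 alone it was 1203 against 2091. The 5 members of the uncertain cluster held 14242 CPM of the visceral endoderm list. Extraembryonic ectoderm-like members had 3123 CPM of their list against 2571, with 430.8 elsewhere. The values lay closest in the parietal endoderm-like class, whose 2 members had 931.7 CPM of its list against 4616 in others of the class and 679.8 in members elsewhere. With 2 members, the difference from members elsewhere is not read as a result. All 12 visceral endoderm markers were also raised in that class's cluster, whose median peak count was 4897.

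The scoring genes were raised in members of each class with at least 5 members. Members of every class were chosen by these genes, so this rise was built in and is a description. Dnajb14 was at 326.0 to 696.1 CPM in members of the 6 named classes of that size and at 24.8 to 39.2 in the others of the same classes. Among these classes Polg2 was highest in visceral endoderm-like members, at 499.9 CPM, and Il17f in epiblast-like members, at 117.7 CPM. Trim36 differed from the rest in that it also marked a class. It was at 152.7 CPM in the embryonic mesoderm-like others and 10.1 to 37.5 CPM in the others of the remaining named classes. In embryonic mesoderm-like members it was at 472.9 CPM.

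RNA of both sexes was found among the members. Xist, the RNA of the inactive X chromosome, was found with no Y-linked RNA in 53 members (35.3%), and Y-linked RNA with no Xist in 63 (42.0%). Another 16 members held both and 18 held neither. Among the 1885 depth-matched others the first shares were 26.4% and 58.6%, with 205 barcodes that held both and 78 with neither. Against all others, the Y-linked genes differed among themselves. Uty had a ratio of 0.361 and Kdm5d 0.651, while Ddx3y had 1.10 and Eif2s3y 1.06. Xist had 0.758. The share that free RNA or mixed barcodes give was not estimated, so no nucleus is assigned a sex.

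Of 5051 genes outside the 7 with at least 50 expected UMIs, 95 (1.88%) were at least 2-fold higher in the members and 556 (11%) at least 2-fold lower, around a median ratio of 1.02. The 20 genes named next fell under that minimum of expected UMIs, so none is among the 95. They were picked for the highest ratios among genes with at least 50 UMIs from at least 15 members, the group where they are high. Stpg4 had the highest ratio among the named genes, 77.6 (60.0 to 100.001), from 100 UMIs in 57 members against 168 UMIs in all others. 4930444P10Rik followed at 52.4 and Milr1, which encodes a mast cell immunoglobulin-like receptor, at 48.8. Lsmem1 had a ratio of 43.8, Lgals4 (galectin 4, of intestinal epithelium) 37.7, Pygm (muscle glycogen phosphorylase) 28.1 and Il12rb2 (a chain of the interleukin 12 receptor) 21.7. Ovgp1 (oviductal glycoprotein) had 15.4, Gm15892 14.0, Pecam1 (an endothelial adhesion molecule) 11.2, Gm8251 11.2, Clcn1 (a muscle chloride channel) 10.7 and Dand5 (a Nodal antagonist) 10.5. B230369F24Rik was at 10.2, Fbxo4 at 6.71, Tmem230 at 6.69, Cxxc4 at 5.27, Klf10 at 5.21, 2210016F16Rik at 5.01 and Phyhipl at 4.72. Against the depth-matched others the same 20 ratios ran from 2.62 for Phyhipl to 47.9 for Stpg4, and several were far smaller: Lsmem1 had 17.7, 4930444P10Rik 23.3, Lgals4 22.1, Pygm 13.5, Il12rb2 12.0 and Gm15892 7.08. These genes are known from tissues as different as muscle, gut, oviduct and blood.

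Summed accessibility at their promoters was slightly higher than in the others. Peaks lay at the promoters of 18 of the 20 genes, and their summed fragments gave a ratio of 1.09 (1.01 to 1.18). All promoter peaks together had 0.960. Of the 661 fragments, Klf10 gave 166, Phyhipl 96 and B230369F24Rik 81, so the sum says little about the genes with the largest RNA ratios. Fbxo4 had the highest, 1.82 (1.34 to 2.42, 48 fragments), and no other of the 18 had an interval that left out 1. Stpg4 had 1.22 (0.522 to 2.41) on 8 fragments. Pygm had 1.66 (0.854 to 2.92) and Lsmem1 0.720 (0.195 to 1.85).

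Most of these genes shared a position. A strongly transcribed neighbour was taken as a gene of at least 100 CPM over all ranked barcodes, and a gene was said to lie past its 3′ end when that end faced the gene within 20 kb. This held for 6 of the 7 scoring genes (85.7%) and for 11 of the 18 named genes that could be placed on RefSeq (61.1%), against 640 of 5011 tested genes (12.8%). The scoring genes made the choice and the position was looked at after the data were seen, so these shares are a description. The named genes were picked for high ratios among genes with at least 50 UMIs from at least 15 members. Of the other placed genes past that same minimum, 688 of 5044 (13.6%) lay past such an end. In 5 of the 6 and 9 of the 11 the neighbour was on the same strand, upstream of the gene, as it was for 276 of the 640. A 5′ end faced 1 of the 7 and 1 of the 18, against 11.4% of the tested genes.

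Among the scoring genes, Il17f (chr1:20777146-20785274) lay 17692 bp past Mcm3, a subunit of the replicative helicase. Msh4 (chr3:153857141-153906138) lay 1151 bp past Rabggtb, a subunit of the Rab geranylgeranyl transferase. Dnajb14 (chr3:137867675-137916563) lay 753 bp past H2afz, which encodes the histone variant H2A.Z, and Polg2 (chr11:106768204-106779537) 818 bp past Ddx5, an RNA helicase. Slc35d2 (chr13:64096308-64129381) lay 3641 bp past Zfp367, a zinc finger gene of the cell cycle, and Nfe2l3 (chr6:51432669-51458772) 1662 bp from the end of Hnrnpa2b1, on the opposite strand. Trim36 had no such neighbour.

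Among the named genes, Stpg4 lay 5320 bp past Calm2 (calmodulin), 4930444P10Rik 7950 bp past Rpl7 (a ribosomal protein) and Lsmem1 3814 bp past Ifrd1. Pygm lay 6370 bp past Sf1 (a splicing factor), Lgals4 10854 bp past Hnrnpl (an RNA-binding protein) and Dand5 9823 bp past Calr (calreticulin). Tmem230 lay 227 bp past Pcna (the replication clamp), Ovgp1 4042 bp past Wdr77 and 2210016F16Rik 5907 bp past Hnrnpk (an RNA-binding protein). Milr1 lay beyond Polg2, 11561 bp past Ddx5 and on the opposite strand, and partly overlapped Polg2 in RefSeq. The gene Il12rb2 overlapped the opposite-strand gene Serbp1. A single helicase gene, Ddx5, was thus the neighbour of both Polg2 and Milr1.

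The genes past these ends were chosen for high RNA in the members and their neighbours were not, so the neighbours' values are given as a description. H2afz was at 1021 CPM in the members and 991.2 in the others, a ratio of 1.03, Ddx5 at 708.4 and 685.6, also 1.03, and Hnrnpa2b1 at 1027 and 980.5, a ratio of 1.05. Rabggtb had a ratio of 1.08, Mcm3 1.54 and Zfp367 2.54. As counts, with no scaling for gene length, the members held 51.5 Dnajb14 UMIs for each 100 of H2afz and the others held 3.13. For Msh4 and Rabggtb the same figures were 85.1 and 3.67, and for Il17f and Mcm3 27.9 and 0.412. RNA begun at a gene's own start and RNA that runs in from a neighbour cannot be told apart in a count per gene, and whether the counting used strand was not given in the sources used here.

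To read this position over many genes, all genes under 2 CPM over the ranked barcodes were grouped by their neighbours, without the 7. The 607 such low genes that lay past a strong 3′ end and were not among the 20 named genes had a ratio of 3.24 (3.07 to 3.42), from 1243 CPM in the members (1365 UMIs) and 383.5 in the others, and 2.92 against the depth-matched others. With the 4 named genes that are also low, the 611 genes summed to 1528 CPM in the members (1678 UMIs, from 322 of the genes) and 388.9 in the others, a ratio of 3.93 (3.74 to 4.12). On the same strand as the neighbour the ratio was 5.36 (5.03 to 5.70), and 4.22 without the named genes; on the opposite strand it was 2.76 (2.55 to 2.98), and 2.45 without them. The 392 low genes that faced only a 5′ end had 2.17 (1.99 to 2.37), and the 8622 with neither had 1.65 (1.61 to 1.70). Low genes as a whole were thus higher in the members, and those past a 3′ end more so as a group. Genes that overlapped the neighbour on the opposite strand are given here without the named genes. The 46 overlapping a 3′ end had a ratio of 1.41 (1.07 to 1.84), an interval that held the 1.65 of genes with neither. The 62 overlapping a 5′ end had 2.996 (2.54 to 3.51). That interval overlapped the one of the 2.45 (2.25 to 2.66) past a 3′ end on that strand. Against the depth-matched others these pairs were 1.44 and 1.56, and 2.49 and 2.27.

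**Figure D3:**
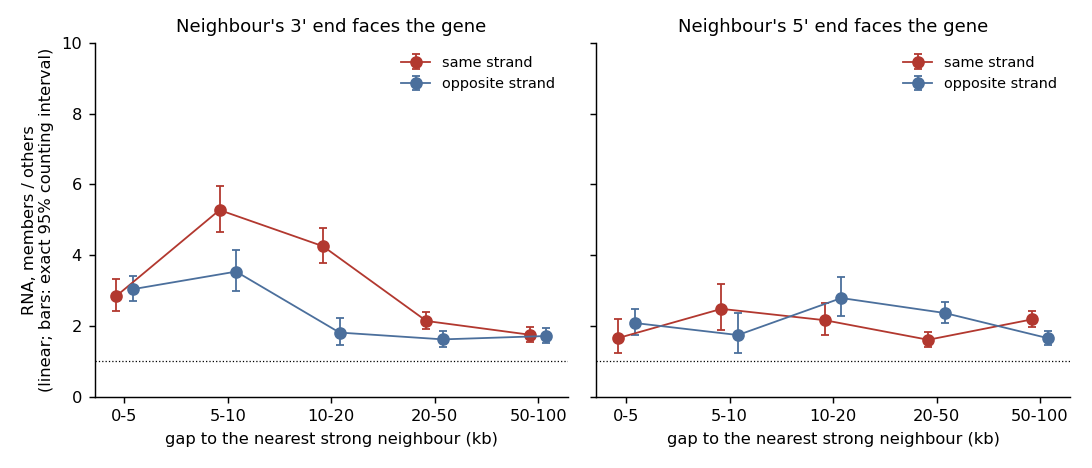
Ratio of summed RNA, members over others (linear axis, exact 95% counting intervals), of genes under 2 CPM by their gap to the nearest strong neighbour, for neighbours whose 3′ end (left) or 5′ end (right) faces the gene, on the same or the opposite strand. Overlapping genes and the 20 named genes are left out; the same-strand ratio past a 3′ end is highest, at 5.27, in the bin from 5 to 10 kb.

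For genes past a 3′ end on the same strand the ratio varied with distance, given here without the 20 named genes, which were left out after the data were seen. The gap is that to the nearest strong neighbour whose 3′ end faced the gene. The ratio was 2.84 (2.41 to 3.32) at gaps up to 5 kb, 5.27 (4.67 to 5.94) from 5 to 10 kb, 4.25 (3.78 to 4.76) from 10 to 20 kb, 2.14 (1.91 to 2.40) from 20 to 50 kb and 1.75 (1.55 to 1.97) from 50 to 100 kb. Low genes with neither end of a strong neighbour facing them within 100 kb had 1.62 (1.57 to 1.67). With the named genes the bin from 5 to 10 kb had 8.13, as Stpg4 and 4930444P10Rik fall in it, and that from 10 to 20 kb had 4.98, with Lgals4. On the opposite strand the ratios at the same gaps were 3.04, 3.54, 1.81, 1.62 and 1.72. Where a 5′ end faced the gene, the bins with a gap ran from 1.61 to 2.79. Sorted instead by the gap to the strongest such neighbour within 100 kb, the same-strand bin from 5 to 10 kb had 5.81 and the one from 10 to 20 kb 4.44.

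The ratio also rose with the neighbour's level, again without the named genes. Past neighbours of 100 to 200 CPM it was 2.34 (2.16 to 2.54, 375 genes), past those of 200 to 400 CPM 3.73 (3.35 to 4.15, 144 genes), and past those above 400 CPM 6.33 (5.70 to 7.01, 88 genes). With the named genes the last was 9.75, since Stpg4, 4930444P10Rik and Milr1 are among them. The ratio fell with the gene's own level, both past a 3′ end and elsewhere. Without the named genes and past a 3′ end, genes of 2 to 10 CPM had a ratio of 1.6, those of 10 to 50 CPM 1.19 and those of 50 to 200 CPM 1.10. Genes with no such end within 20 kb had 1.69 under 2 CPM, then 1.20, 1.06 and 1.0 at those levels.

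Nucleus by nucleus the 607 low genes past a 3′ end had a median of 1256 CPM in the members (lowest 0, highest 4036), 355.8 in the others and 379.6 in the depth-matched others. Of the 150 members, 138 lay above the upper quartile of the others. The highest of the others was at 2765 CPM, so the groups overlapped. With the named genes the medians were 1569, 359.8 and 381.8 CPM.

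**Figure D4:**
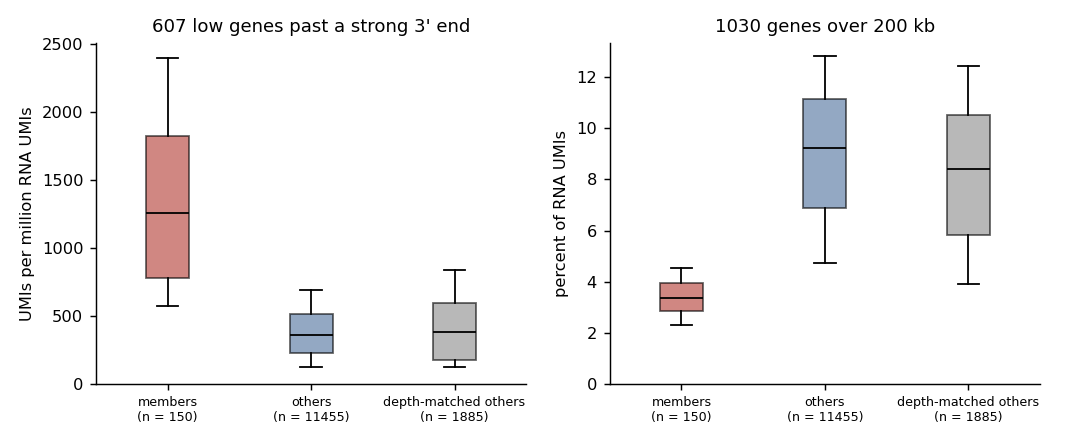
Boxes give the median and quartiles, and whiskers the outermost deciles, over the nuclei of each group. Left, CPM of the 607 low genes past a strong 3′ end, without the 20 named genes, with medians of 1256 in members and 355.8 in others; right, percent of UMIs from 1030 genes over 200 kb, with medians of 3.38% and 9.21%.

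Accessibility past 3′ ends was not raised. Peaks past the 3′ ends of strong neighbours held 2.50% of the members' fragments and 2.54% of the others', a ratio of 0.984 (0.974 to 0.995). Peaks before 5′ ends had a ratio of 0.978, those at promoters 0.960, those inside strongly transcribed genes 0.968, and all other peaks 1.06.

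The genes that were lower in the members were mostly long. Of the 10 named ones, Kcnq5 (a potassium channel, 564.3 kb) had a ratio of 0.203, Dach1 (a transcription cofactor, 382.9 kb) 0.193, Vwa8 (353.3 kb) 0.176, Ranbp17 (a nuclear transport receptor, 302.0 kb) 0.212 and Sfmbt2 (a Polycomb-related gene, 224.8 kb) 0.198. Eps8 (172.2 kb) had 0.195 and Lama1 (a laminin chain, 125.5 kb) 0.196. The other named ones were short: Snhg11 (10.8 kb) at 0.175, Fosb (an immediate-early AP-1 subunit, 7.42 kb) at 0.209 and Lrrc4 (3.62 kb) at 0.188.

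Over all tested genes the ratio fell with length. The 416 tested genes over 200 kb had a median ratio of 0.418 (quartiles 0.327 and 0.539), and 283 of them (68.0%) were at least 2-fold lower, against the 11% over all genes. From 100 to 200 kb the median was 0.614 and 28.5% were at least 2-fold lower, and from 50 to 100 kb it was 0.914. Below 50 kb the medians were 1.12 to 1.18. Against the depth-matched others the median above 200 kb was 0.457.

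**Figure D5:**
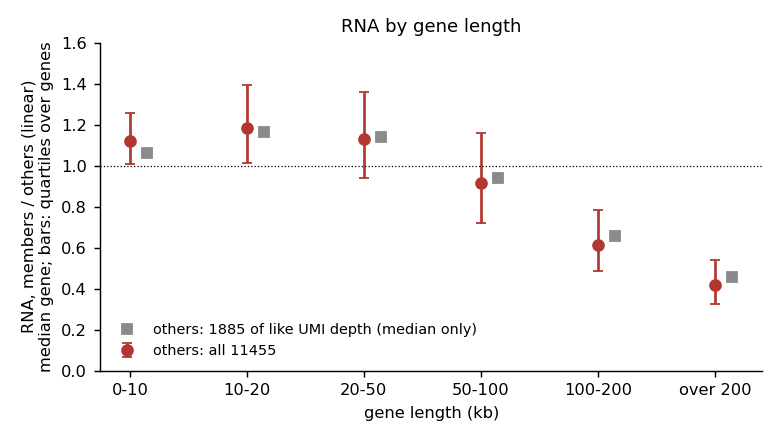
Median over genes of the RNA ratio, members over others (linear axis), by RefSeq gene length in kb, with bars for the quartiles over genes; squares are the medians against depth-matched others. The median falls from 1.18 at 10 to 20 kb to 0.418 above 200 kb.

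Per nucleus, the 1030 genes over 200 kb gave a median of 3.38% of the members' UMIs (lowest 1.32%, highest 13.1%), 9.21% of the others' and 8.41% of the depth-matched others'. Of the members, 140 lay below the lower quartile of the others, and 140 below that of the depth-matched others. The pooled ratio was 0.451 (0.447 to 0.455).

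Both features were found in every class with at least 5 members. The ratio of the 607 low genes past a 3′ end, each class against its own others, ran from 1.91 (1.35 to 2.62, 38 UMIs) in the extraembryonic ectoderm-like class to 4.18 (3.36 to 5.16) in the haemato-endothelial progenitor-like class. It was 3.47 (3.16 to 3.79) in the epiblast-like and 3.41 (2.96 to 3.91) in the visceral endoderm-like class. In the class with the uncertain cluster it was 3.06, from 2.86 in the cluster of 17 members and 4.12 in that of 5. With the named genes the classes ran from 2.47 to 4.58. The ratio of the genes over 200 kb ran from 0.305 in the haemato-endothelial progenitor-like to 0.551 in the embryonic mesoderm-like class. The class ratios were not depth-matched.

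Both also varied with the score. At ranks 1 to 50 the 607 low genes past a 3′ end summed to 1501 CPM, at ranks 51 to 100 to 1248, at ranks 101 to 150 to 1043, at ranks 151 to 300 to 767.4 and at ranks 301 to 600 to 512.8. Past rank 3000 they summed to 366.2 CPM. The share from genes over 200 kb was 3.63%, 3.35% and 5.06% in the 3 bins of members, 5.83% at ranks 151 to 300 and 9.36% at ranks 301 to 600. It was 9.91% at ranks 601 to 1200, 9.69% at ranks 1201 to 3000 and 8.96% past rank 3000. Median UMIs moved with rank too, from 5999 at ranks 1 to 50 to 8264 at ranks 151 to 300 and 10521 at ranks 301 to 600, and their part in these values was not tested.

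Among the other gene groups the S phase list was higher throughout. All 19 of its genes had ratios above 1, against 52% of the 8087 genes with at least 20 expected UMIs, with a median of 1.65 against 1.02. Dtl (a replication-licensing ubiquitin ligase subunit) had the highest ratio, 2.38, and Uhrf1 (maintenance methylation) the lowest, 1.23. Dtl, Cdc6 (2.31) and Slbp (the histone mRNA binding protein, 2.26) were at least 2-fold higher, 3 of 19 against 2.82% of those genes. Summed, the list was at 6029 CPM in the members and 3551 in the others, a ratio of 1.70 (1.66 to 1.74), and 1.37 against the depth-matched others. Each class with at least 5 members showed it, with ratios from 1.34 to 2.03. These class ratios were not depth-matched. The 2.03 was in the visceral endoderm-like class, where members had a median of 5447 UMIs against 13746. Of the 18 G2 and M phase genes, 4 were above 1, with a median of 0.876, from Hmmr at 0.539 to Cdc20 at 1.32. Summed, that list had a ratio of 0.888 against all others and 1.05 against the depth-matched others, so it had no stable direction.

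Relatives of the scoring genes were not used in the choice. Among 10 IL-17 ligands and receptors, Il17a, Il17b, Il25 and Il17rc had 0 UMIs in the members, which allows up to 2.73 CPM each (3 counts over the group) and so shows no difference from the 0 to 1.86 CPM of the others, and Il17rd, the 1 gene with at least 20 expected UMIs, was at 119.3 CPM against 122.2. Of the 30 meiosis genes, 5 had at least 20 expected UMIs and 2 of these were above 1. Dmc1, the meiotic recombinase, was at 62.8 CPM against 19.1, a ratio of 3.30 (2.56 to 4.19). It was also among the 10 leading genes of the epiblast-like RNA cluster that held 82 members and 882 other barcodes. Mlh3, a MutL homologue that acts with Msh4 in crossing over, was at 8.19 against 18.5, a ratio of 0.443 (0.202 to 0.842). The other 25 meiosis genes had 0 to 18 UMIs in the members and went both ways, such as Prdm9 at 2.79 (1.48 to 4.80, 13 UMIs) and Hfm1 at 0.248 (0.0511 to 0.726, 3 UMIs), which were chosen after their values were seen.

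The counts above 1 in the next lists stand beside the same 52% over all genes with at least 20 expected UMIs. Among 14 chaperones with at least 20 expected UMIs, 12 were above 1, from Hsph1 at 0.967 to Dnajb9 at 2.47, and the list's sum had a ratio of 1.12 (1.10 to 1.14). Among 9 genes of mitochondrial DNA maintenance, 8 were above 1, from Polg, the catalytic partner of Polg2, at 0.751 (0.605 to 0.923) to Tfb2m, a mitochondrial transcription factor, at 2.19 (1.82 to 2.61). Of 10 nucleotide sugar transporters 5 were above 1, near that share, from Slc35a3 at 0.443 to Slc35d1 at 1.64. Of the class I TRIM ligases related to Trim36, Trim71 was at 392.4 CPM against 358.0 and Mid1 at 45.5 against 65.4.

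Nfe2l3 belongs to the CNC-bZIP factors. Of 12 partners and antioxidant targets with at least 20 expected UMIs 7 were above 1, from Bach2, a repressor of the family, at 0.462 to Gclc, a glutathione synthesis enzyme, at 2.19 (1.96 to 2.44). The 7 of 12, and the 5 of 10 apoptosis genes above 1, are near the 52% over all such genes. Of the 28 p53 target genes 15 had at least 20 expected UMIs, and 12 of these were above 1, with a median of 1.21, from Pvt1 at 0.295 to Trp53inp1 at 2.45. Plk2 (4.80, 36 UMIs) and Eda2r (4.15, 35 UMIs) fell under that minimum and were chosen after their values were seen. Fas and Gdf15 of the same list had 0 UMIs in the members, which allows up to 2.73 CPM each. Among the apoptosis genes Bcl2l11, which encodes the death activator Bim, had the highest ratio, 3.10.

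Markers of the conflicting tissue labels and of immune cells were checked because Il17f, Lgals4 and Milr1 are known from gut and blood cells. The goblet cell genes Muc2, Tff3, Fcgbp, Clca1 and Spdef had 0 UMIs in the members, and the summed list, at 71.9 CPM against 30.7, drew 61 of its 79 UMIs from Lgals4. In the list of 11 immune genes 6 were at 0, including Ptprc, the pan-leukocyte marker, Cd3e and Cd3g of the T cell receptor complex, and Lyz2 and Tyrobp of myeloid cells. The goblet and immune genes named here at 0 were at 0.782 CPM or less in the others too, under the 2.73 CPM that a count of 0 allows, so these zeros show no difference between the groups. The list summed to 54.6 CPM in the members (0 to 501.9 in single nuclei) and 8.81 in the others. Of its 60 UMIs, Cd68 gave 36, at 32.8 CPM against 4.25, and Cd79a 20, at 18.2 against 1.14.

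Summed over all members, the lineage lists of the embryo had ratios from 0.691 for ectoplacental cone and giant cells to 1.53 for anterior ectoderm. The epiblast list was at 2394 CPM against 2145, a ratio of 1.12 (1.07 to 1.16), and 0.977 (0.94 to 1.02) against the barcodes with a Pou5f1 UMI. Of its 11 genes with at least 20 expected UMIs 8 were above 1 and none was at least 2-fold higher, from Dnmt3b, a DNA methyltransferase, at 0.819 to Fgf5, an epiblast growth factor, at 1.77. Pou5f1 itself was at 142.0 CPM against 117.7, a ratio of 1.21 that was 0.991 against the depth-matched others, and 88 members (58.7%) held a UMI of it, against 64.7% of the others. The anterior ectoderm list had a ratio of 1.53 (1.44 to 1.64), with all 7 such genes above 1, from Pou3f1 at 1.28 to Zic2 at 1.90. The embryonic mesoderm list had 0.714 and the primitive streak list 0.957 (0.663 and 0.877 against the depth-matched others). The visceral endoderm list had 0.764 against all others and 1.21 against the depth-matched others, so its direction turned between these comparisons. Of 3 primordial germ cell genes with at least 20 expected UMIs 1 was above 1, and Dppa3, a germ cell gene, had 0 UMIs in the members and 0.412 CPM in the others, too little to tell them apart.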

How the data were processed

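Nuclear RNA and chromatin accessibility came from 1 library each of the same nuclei, so no p-value was computed and the 95% intervals (exact Clopper-Pearson or exact conditional) cover counting error only. The deposited values were counts, not normalized, of UMIs per gene and of reads or cuts per accessibility peak (which of these was not stated), written by Cell Ranger ARC 2.0.0 per the file headers. The submitters' processing notes name that version and the build mm10. The peak caller is not given in the sources used here. Of the nonzero deposited peak counts, 86.4% were even, so accessibility was measured in estimated fragments, each count divided by 2 and rounded to the next whole number. The whole series held 182201512 UMIs and 273131304 peak counts in 15341 barcodes, and each barcode carried both assays.

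The members and all gene lists were chosen with earlier results of these data known. Genes were named by rule: the 7 scoring genes, the 20 highest ratios among genes with at least 50 UMIs from at least 15 members and no member holding over 20% of them, the 10 lowest ratios among genes with at least 50 expected UMIs, the extremes of each list, and the 10 highest peaks. The list of mismatch repair and recombination genes is not reported here. Ratios are of summed counts per 1000000 UMIs (CPM) or per 1000000 fragments, members over others, and "2-fold" counts needed 50 expected UMIs or 20 expected fragments in the members. Accessibility was embedded by TF-IDF and 30 singular vectors over peaks seen in at least 50 barcodes, RNA by 30 principal components of 2000 variable genes without the 7 scoring genes. Both were clustered on 15 neighbours with leidenalg 0.10.2 in scanpy 1.11.5 (resolution 1, seed 0). Clusters were named from the RNA marker list with the highest mean log2 ratio, which had to reach 0.5 with at least 3 markers raised 1.5-fold, and a cluster stayed unnamed where another list had more markers among its top 10 genes. Doublets were called with Scrublet (expected rate 0.1) and kept in the main values. Gene spans, strands and promoters are RefSeq GRCm38.p6, on which 26129 of the files' genes were placed. The positional groups and the length groups were chosen after the data were seen. Alternatives changed the number of members, the score, the depth range, the doublets, the comparison barcodes, windows and count minimums. The fold calculation was tested on simulated data.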

Additional observations from a re-analysis of the deposited data

How the results depend on the processing

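No paired analysis was possible because there was 1 library per assay. With 1 library, counting error alone sets the intervals, and embryo-to-embryo variation was not measured. A value is called moved here when it left its 95% counting interval, or when a count changed by over 1.5 times. The summed promoter ratio of the scoring genes and the share of members in their leading accessibility cluster stayed within theirs under every alternative run. Shared members numbered 110 of 150 with thinned scores, 127 with the pooled share, 148 without doublet calls and 113 at 5000 to 20000 UMIs.

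The epiblast list ratio turned to 0.977 against barcodes with a Pou5f1 UMI and moved to 1.04 with 300 members, 1.01 with thinned scores, 1.07 with the pooled share, 1.07 at 5000 to 20000 UMIs and 1.02 against depth-matched barcodes. The median left-out gene ratio moved to 8.37 with 300 members, 8.23 with thinned scores and 11.0 with the pooled share. Neighbour shares moved to 10.7% with 30 neighbours, 9.93% with 100 members, 15.5% with 300 members and 10.0% with thinned scores. Genes at least 2-fold higher numbered 95 of 5051 in the main values, 228 of 8087 with at least 20 expected UMIs, 58 of 3442 with 100 members, where fewer genes met the minimum, and 47 of 5196 with thinned scores. Genes at least 2-fold lower moved from 556 of 5051 to 361 of 5196 with thinned scores and 358 of 7829 with 300 members.

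Peaks at least 2-fold higher numbered 105 of 26965 with at least 10 expected fragments, 89 of 25475 as deposited counts, 15 of 28397 with 300 members, and 2 with thinned scores (of 13999), without doublet calls (of 14163), and at 5000 to 20000 UMIs (of 14442). They numbered 0 of 13639 with the pooled share and 0 of 14749 against barcodes with a Pou5f1 UMI, against 1 of 14338 in the main values. Peaks at least 2-fold lower numbered 103 of 14338 in the main values. They moved to 579 of 26965 with at least 10 expected fragments, 535 of 25475 as deposited counts and 56 of 13999 with thinned scores.

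Alternatives for the positional, length and S phase values were chosen after seeing the data. The ratio of low genes past a 3′ end moved to 3.16 with gaps up to 50 kb, 3.24 without the named genes, 4.32 with 100 members, 2.97 with 300 members, 3.43 with thinned scores, 3.45 at 5000 to 20000 UMIs and 3.51 against depth-matched barcodes. The ratio of genes over 200 kb moved to 0.579 with genes over 100 kb, 0.383 with 100 members, 0.556 with 300 members, 0.549 with thinned scores, 0.469 with the pooled share, 0.438 without doublet calls, 0.482 at 5000 to 20000 UMIs and 0.492 against depth-matched barcodes. The S phase ratio moved to 1.37 against depth-matched barcodes. The cause of these moves was not tested.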

Other observations

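Several genes with few UMIs in the members stood out in the lists without reaching the minimum for a named gene. Nfe2, the founding CNC-bZIP factor of blood cells, had 13 UMIs from 13 members, at 11.8 CPM against 0.307, a ratio of 38.5 (19 to 72.8). Cd79a, a chain of the B cell receptor, had 20 UMIs from 18 members and a ratio of 15.9 (9.46 to 25.4). Brdt, a bromodomain gene of the testis, had 8 UMIs and a ratio of 6.73 (2.86 to 13.6). These genes were chosen after their values were seen.

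Neighbours of the named genes that were themselves higher in the members included Casp2, at 91.1 CPM against 28.5 with Clcn1 2343 bp past its 3′ end, and Tex30, at 116.5 against 57.5 with Gm8251 4166 bp past it. Both were below 100 CPM in the others and so were not counted as strong neighbours. Runx1, a blood transcription factor, had a ratio of 2.22 and gave 129 of the 275 UMIs of the haemato-endothelial progenitor list. Of 4 genes of that list with at least 20 expected UMIs 3 were above 1, and only Runx1 was at least 2-fold higher. Sox3 had 1.99, but its list, that of extraembryonic ectoderm, had a summed ratio of 0.769. In that list 2 of 9 genes with at least 20 expected UMIs were above 1.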
